A study of Mus musculus with 2 samples.

Results

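The genes described here encode the receptor subunits for glutamate, GABA and glycine, the main fast transmitters of the brain, with the G protein-coupled receptors for glutamate and GABA. They were chosen by name alone, as protein-coding genes of the mouse annotation called Gria, Grid, Grik, Grin, Grm, Gabr, Gabbr or Glra with their digit or letter, or Glrb. This gave 52 of 21851 protein-coding genes: 26 for glutamate receptors and 26 for GABA and glycine receptors. Chromatin accessibility was measured by DNase-seq, in which the nuclease DNase I cuts DNA that nucleosomes leave exposed and the cut sites are sequenced. The tissue was whole hindbrain from healthy B6NCrl mouse embryos of age 11.5 days, males and females pooled, with no treatment and no altered allele. The 2 libraries, biological replicates 1 and 2, form a single group, so no condition was compared and no test across samples was possible.

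Ionotropic glutamate receptors are tetrameric cation channels, divided into AMPA, kainate, delta and NMDA types. GABA-A and glycine receptors are pentameric chloride channels built from subunits of one superfamily, while the metabotropic glutamate and GABA-B receptors signal through G proteins. At this stage the hindbrain holds dividing progenitors beside the first neurons, and most synapses have not yet formed. In a whole tissue, accessibility in fewer cells and lower accessibility in each cell cannot be told apart.

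Replicate 1 had 150176 peaks on the main chromosomes and replicate 2 had 194873, each 150 bp wide. Each peak carried a height in whole numbers from 1 upwards, on a scale that no source used here explains. The median height was 36 in replicate 1 and 50 in replicate 2, so heights were compared between libraries as percentiles within each library. Promoters of the neuron markers (8 of 8) and progenitor markers (7 of 7) had a peak in both libraries, as did 8 of 12 hindbrain markers, 6 of 8 forebrain markers, 3 of 6 astrocyte and oligodendrocyte markers, 1 of 4 endothelial markers and 0 of 6 blood and microglia markers. Hoxa3, one of the hindbrain markers, had no promoter peak, and Hoxa2, Hoxb2 and Hoxb3 had one in replicate 2 only. The part of dissection or of regional identity in these values was not tested.

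A gene was counted as accessible at its promoter when peaks of both libraries overlapped within 1 kb of one of its annotated starts, a shared promoter site. Of the 52 receptor genes 45 met this, or 86.5%, against 65.9% of all protein-coding genes. Glutamate receptor genes met it in 25 of 26 cases, and GABA and glycine receptor genes in 20 of 26. All 5 kainate, 2 delta, 7 NMDA, 8 metabotropic glutamate and 2 GABA-B receptor genes were accessible, with 3 of 4 AMPA, 14 of 16 GABA-A and 4 of 5 glycine receptor genes. None of the 3 rho genes, whose subunits form GABA-gated channels best known from the retina, had a shared promoter site. Members cannot serve as replicates of one another, and these shares are descriptions.

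The accessible receptor promoters carried low peaks. Heights at each gene's highest shared promoter site had a median of 66 in replicate 1 and 102 in replicate 2, against 100 and 127 over the 14393 genes with a shared promoter site. On the mean percentile of the 2 libraries the 45 receptor genes had a median of 84.3 and all accessible genes had one of 95.3. Not one of the 45 lay above the median of all accessible genes, and 31 lay below their lower quartile of 88.2. The highest receptor promoter, that of Grik2, stood at percentile 95.1, and 51.2% of all accessible genes stood higher. In single libraries the pattern was a little looser: 42 of 46 receptor genes with a peak lay below the median in replicate 2 alone, and 45 of 47 in replicate 1 alone.

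**Figure D1:**
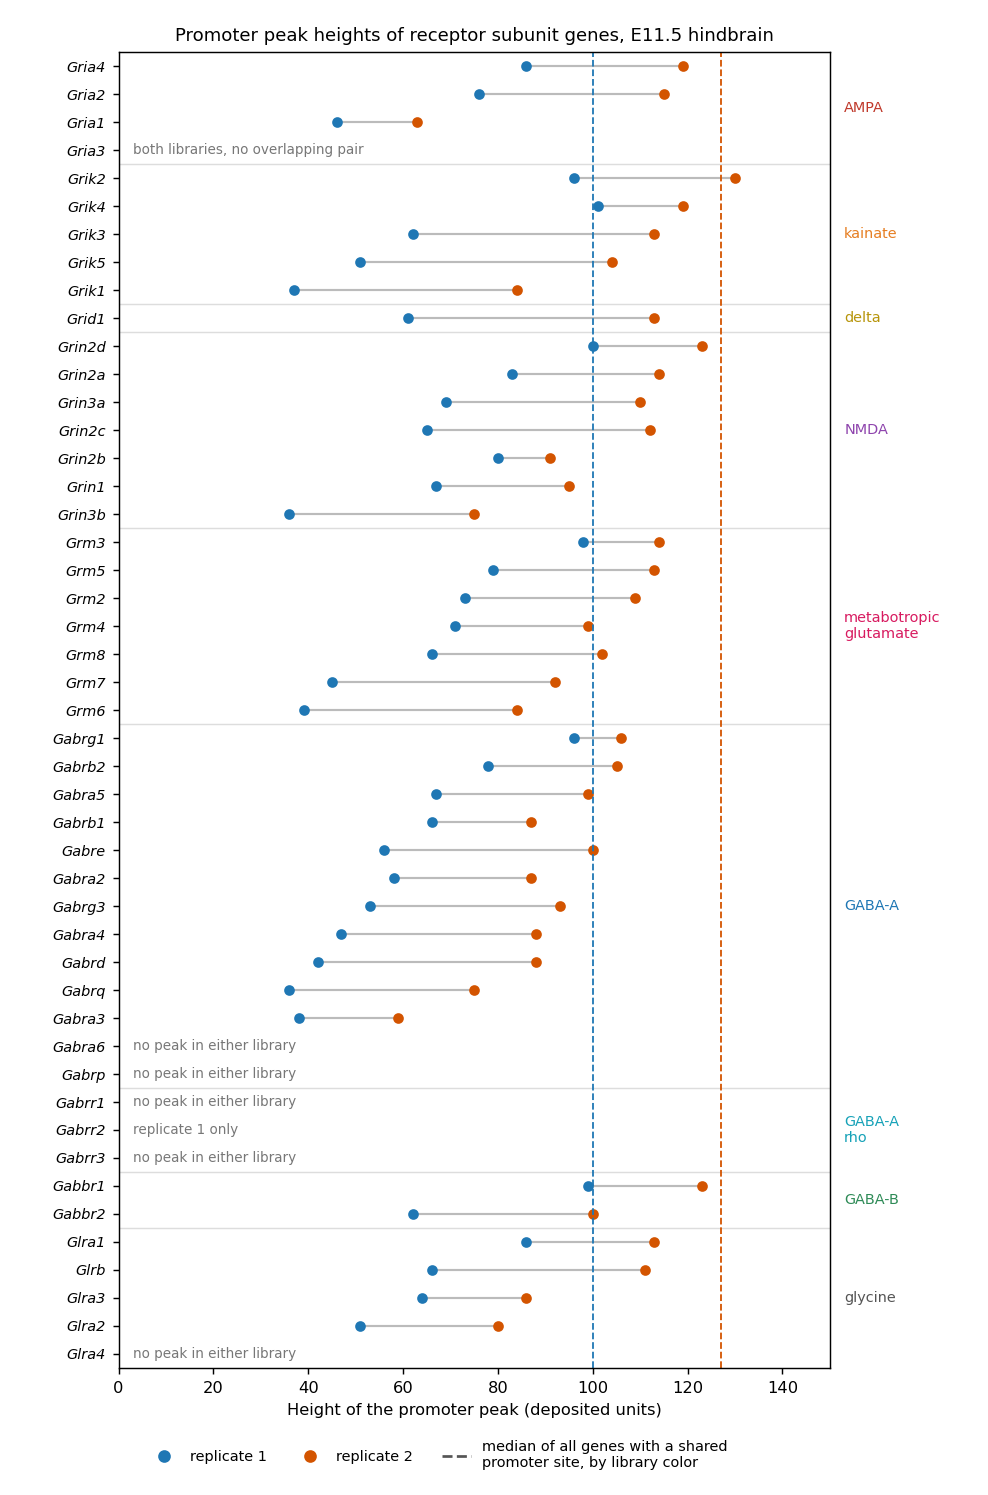
Height of the highest shared promoter site of 40 receptor subunit genes (x axis, deposited height units) in replicate 1 (blue) and replicate 2 (orange), grouped by receptor type, with 7 genes without such a site named at their rows. Dashed lines give the medians over all genes with a shared promoter site, 100 in replicate 1 and 127 in replicate 2. Of the genes drawn, Grik4 alone lies right of the replicate 1 line and Grik2 alone right of the replicate 2 line, and each is higher in replicate 2.

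Each pair of heights given for a gene is that of replicate 1 and that of replicate 2. The plot of heights by gene shows how few promoters reached the genome-wide medians. Grik4 alone passed 100 in replicate 1, with 101, and Grik2 passed 127 in replicate 2, with 130. These are heights at each gene's highest shared promoter site by mean percentile. At a further shared promoter site Gabbr1 had 90 and 130 and Grik4 had 83 and 129. All 45 heights were larger in replicate 2, as were those of 14305 of the 14393 accessible genes. The median ratio of replicate 2 to replicate 1 was 1.51 for receptor genes and 1.26 over all accessible genes. The order of the receptor genes was similar in both libraries (Spearman's rho 0.771 over 45 genes, 0.882 over 14393 genes, a description across genes measured in the same 2 libraries).

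Among AMPA receptor genes, which encode the channels of most fast excitatory synapses, Gria4 had heights of 86 and 119 in replicates 1 and 2. Gria2, whose edited subunit makes the channel impermeable to calcium, had 76 and 115. Gria1 was much lower in both libraries, with 46 and 63 at percentile 63.5. Gria3 was the single receptor gene with promoter peaks in both libraries that did not overlap, a state seen in 0.531% of all genes. Its replicate 1 peak, of height 43, was centred 338 bp before a start, and replicate 2 had 5 peaks of heights 71, 51, 55, 65 and 35 between 618 bp before and 965 bp after a start. The hotspot there, the wider enriched region the authors called, was 146 bp long in replicate 1 and 1164 bp long in replicate 2. Gria3 thus had promoter peaks in each library that did not overlap, and it counts as accessible when either library is taken alone. Whether its hotspots overlap between the libraries was not examined.

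Kainate receptor genes spanned nearly the whole range. Grik2, which encodes a subunit able to form channels on its own, had the highest receptor promoter of all, with 96 and 130, 14 bp before a start. Grik4, whose subunit needs a partner of the Grik1 to Grik3 group, had 101 and 119, and these ranked 1 and 4 among the 45 promoters. Grik3 had 62 and 113 and Grik5 had 51 and 104. Grik1, with 37 and 84 at its only shared promoter site, was among the 5 lowest. By shared sites, close relatives in one receptor type thus stood at opposite ends of the order. Grik1 also had taller promoter peaks that did not overlap between libraries, of height 57 in replicate 1 and 97 in replicate 2. Its low rank therefore holds for the shared site alone. Grid1, a delta receptor gene whose subunit binds cerebellins across the synapse, had 61 and 113.

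All 7 NMDA receptor genes were accessible. Grin2d, a subunit gene known for its early expression in the brainstem and diencephalon, had 100 and 123, rank 2, at a site in a coding exon centred 969 bp after a start. Grin2a had 83 and 114, in an intron 702 bp after a start. Grin1, which encodes the subunit required in every NMDA receptor, had a single shared site with 67 and 95. Grin2b, the other main partner in embryonic brain, had 80 and 91. By the highest shared site within 1 kb, Grin1 and Grin2b, with percentiles of 82.8 and 85.1, therefore ranked below Grin2d and Grin2a. This order depends on sites away from the starts. At the upstream start of Grin2d the highest shared site had 38 and 71. The shared site of Grin2a closest to a start, 257 bp before it, had 39 and 99. Grin3a had 69 and 110 and Grin2c had 65 and 112, while Grin3b, for a glycine-binding subunit, had 36 and 75.

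The 8 metabotropic glutamate receptor genes were all accessible. Grm3, which couples to inhibitory G proteins and is also known from glia, had 98 and 114 at a site centred 1000 bp before its start, rank 5. Grm5, which couples to phospholipase C, had 79 and 113, 3 bp before a start. Both sites were well above those of Grm6, a receptor best known from retinal bipolar cells, with 39 and 84, and of Grm7, with 45 and 92. The other shared promoter site of Grm3, centred 10 bp after its start, had 36 and 81, below Grm6 and Grm7. Grm2 had 73 and 109, Grm4 71 and 99, and Grm8 66 and 102.

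GABA-A receptor genes had the lowest median of the fully or mostly accessible types, 57 and 96. Gabrg1, which encodes a gamma subunit, ranked 7 with 96 and 106. Gabrb2, for a beta subunit, had 78 and 105. Of the alpha subunit genes, Gabra5 had 67 and 99, Gabra2 58 and 87, Gabra4 47 and 88, and Gabra3 38 and 59. Gabra3 had the lowest accessible promoter of all 45. The extrasynaptic subunit gene Gabrd had 42 and 88, and Gabrq had 36 and 75. Of the GABA-B genes, Gabbr1, for the subunit that binds GABA, ranked 3 with 99 and 123, and Gabbr2, for the one that couples to the G protein, had 62 and 100.

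Among glycine receptor genes Glra1, the main alpha subunit gene of the mature spinal cord and brainstem, had 86 and 113. Glra2, known as the embryonic alpha subunit gene, was lower in both libraries, with 51 and 80. Glra3 had 64 and 86, and Glrb, whose subunit binds gephyrin, had 66 and 111. Glra1 was the highest and Glra2 the lowest of the 4 accessible genes in each replicate.

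No promoter peak in either library was found at 5 receptor genes, Gabra6, Gabrp, Gabrr1, Gabrr3 and Glra4, or 9.62% of the 52, against 29.8% of all genes. Gabra6 is known from cerebellar granule cells, which have not yet formed at this age, and Gabrp from tissues outside the brain. Gabrr2 had a peak in replicate 1 only, of height 27 and centred 969 bp before a start, a state shared by 0.677% of all genes. No hotspot covered the promoters of the 5 genes without a peak, and that of Gabrr2 was 224 bp long in replicate 1 and absent in replicate 2. For these peak lists no limit can be given on accessibility below the authors' calling threshold.

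Most of the genes without a shared site had few CpG dinucleotides around their starts. The ratio of observed to expected CpG within 500 bp of a gene's most CpG-rich start was 0.101 at Glra4, 0.142 at Gabrp, 0.15 at Gabrr2 and 0.161 at Gabra6, and it was 0.27 at Gabrr1 and 0.267 at Gabrr3. The exception was Gria3, with 0.546. All 9 receptor genes with a ratio of 0.8 or more were accessible, among them Grin1 (0.975), Grm4 (0.952) and Grik3 (0.929). The sequences below are picked examples from the ends of this range. They are the 200 bases before the outermost start of 2 genes without a peak and the highest shared promoter site of 2 accessible genes with a ratio above 0.8. They were read from GRCm38.p6 (mm10) on the gene's strand, 5′ to 3′, with each CpG in capitals. The Gabra6 stretch is chr11:42321073-42321272 on the minus strand, the Glra4 stretch chrX:136780142-136780341 on the minus strand, the Grid1 site chr14:34819656-34819825 on the plus strand and the Grik3 site chr4:125489996-125490145 on the plus strand, none of them overlapping an annotated exon.
Gabra6: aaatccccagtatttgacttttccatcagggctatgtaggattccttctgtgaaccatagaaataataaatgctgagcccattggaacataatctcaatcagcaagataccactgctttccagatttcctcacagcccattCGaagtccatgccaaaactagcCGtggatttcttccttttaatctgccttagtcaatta
Glra4: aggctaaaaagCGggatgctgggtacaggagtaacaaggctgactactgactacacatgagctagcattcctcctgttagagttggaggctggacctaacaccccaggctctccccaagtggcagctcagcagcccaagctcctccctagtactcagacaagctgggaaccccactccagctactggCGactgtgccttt
Grid1: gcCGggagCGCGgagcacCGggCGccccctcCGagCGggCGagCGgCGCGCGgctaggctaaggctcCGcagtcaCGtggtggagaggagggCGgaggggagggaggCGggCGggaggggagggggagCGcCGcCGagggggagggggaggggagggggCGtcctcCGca
Grik3: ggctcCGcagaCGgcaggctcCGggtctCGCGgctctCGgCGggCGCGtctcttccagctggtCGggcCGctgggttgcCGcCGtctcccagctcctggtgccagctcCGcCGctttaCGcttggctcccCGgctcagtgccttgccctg
The Gabra6 and Glra4 stretches hold 2 CpGs each, the Grid1 site holds 22 and the Grik3 site 17. The stretches and the sites are defined differently, and other genes stand closer together. The highest shared promoter site of Gabrg1 holds 2 CpGs in 170 bases and that of Grm3 holds 8 in 190. The 200 bases before the start of Gabrr1, which had no peak, hold 6.

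A clearly larger share of receptor genes than of all genes was accessible in 1 CpG range, from 0.2 to 0.4, and the other ranges were nearer to all genes. With a ratio under 0.2, 0 of 4 were, against 4.92% of all genes in that range. Between 0.2 and 0.4 it was 7 of 9, against 27.2%, and between 0.4 and 0.6 it was 15 of 16, against 82.1%. The 7 accessible genes of low CpG content were Gria1, Gabra3, Gabrg1, Grm3, Glra2, Glra3 and Grik5, with members of 5 receptor types among them. From 0.6 to 0.8 all 14 were accessible, against 96.3%, and from 0.8 all 9, against 98.9%.

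Peak height departed in the other direction, and most at CpG-rich starts. From 0.6 to 0.8 the 14 receptor promoters had median heights of 61.5 and 90.5, against 103 and 128 over all accessible genes of that range, and all 14 lay below that range's median percentile. From 0.8 the 9 receptor promoters had 67 and 102, against 109 and 133, and all 9 lay below. Between 0.4 and 0.6 the medians were 78 and 104 for receptor genes and 81 and 111 for all, with 10 of 15 below. Between 0.2 and 0.4 they were 51 and 86 for receptor genes and 56 and 83 for all, with 3 of 7 below. In all, 36 of the 45 lay below the median of their own CpG range.

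**Figure D2:**
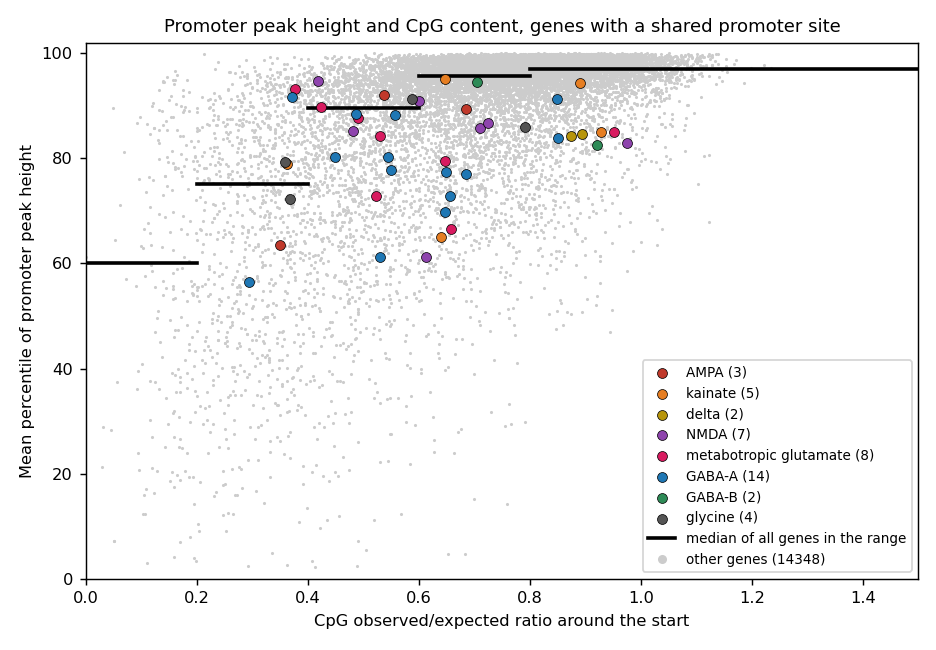
Mean percentile of promoter peak height (y axis) against the CpG observed/expected ratio around the start (x axis) for the 45 receptor genes with a shared promoter site, colored by receptor type, over the 14348 other such genes (grey). Black lines are the medians of all accessible genes in each CpG range; right of a ratio of 0.6 every receptor gene lies under its line.

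The receptor promoters were also apart from those of other protein-coding genes. None of the 45 highest sites lay within 1 kb of another protein-coding gene's start, whereas 16.3% of all accessible genes shared their site with a neighbour. Among the 12043 accessible genes whose site lay at 1 gene only, the median percentile was 94.6, and 43 of the 45 receptor genes were below it. The number of sites was not low: 33 receptor genes had 2 or more shared promoter sites, against 39.1% of all genes, and Gabbr1, Grin2a and Grin2d had 5 each. Of the 197 promoter sites of receptor genes 104 were shared, 38 were in replicate 1 only and 55 in replicate 2 only. The 104 thus stood beside 142 sites with a replicate 1 peak and 159 with a replicate 2 peak. Summed over all genes, 28515 shared sites stood beside 39872 and 39992. The highest site was centred within 250 bp of a start in 26 genes and over 500 bp away in 13. By the centre of the site and the protein-coding transcripts of the basic annotation, it lay in a UTR in 14 genes, in an intron in 10, in a coding exon in 3 and outside these transcripts in 18, some of which overlap an exon in part or in a wider annotation.

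Alternative starts of one gene differed. Of the 110 annotated starts of receptor genes 90 had a shared site within 1 kb. The same share over the starts of all genes was not computed, so this count is not a comparison. Grik4 had 101 and 119 at the upstream start and 33 and 44 at the downstream one. Grin2d had 38 and 71 at the upstream start and 100 and 123 at the downstream one. Grik1, Grm5 and Grm8 likewise had starts with no peak in either library beside accessible ones.

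Hotspots over the receptor promoters were shorter than usual in replicate 1 and not in replicate 2. Their median length was 635 bp in replicate 1, against 929 bp over all accessible genes, and 1876 bp in replicate 2, against 1631 bp. None of the 45 was longer than 2 kb in replicate 1, where 5.79% of all accessible genes were, while 17 of 45 were in replicate 2, where 31.3% were. The longest in replicate 2 were those of Grik3 (3921 bp), Grin2a (3857 bp), Gabbr2 (3837 bp) and Grid1 (3812 bp). The libraries differ in their number of peaks, and its part in these lengths was not tested.

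Beyond 1 kb, sites were assigned to the gene with the nearest start, up to 100 kb. Receptor genes had 134 such shared distal sites, which is 2.58 per gene on average (median 1), against 2.52 (median 1) over all genes. The mean was 6.29 for receptor genes without replicate 1, against 5.07 over all genes. It was the lower one with a 50 kb limit (1.87 against 2.01) and with promoters taken as 2500 bp (2.1 against 2.23). At least 1 was found for 40 of 52 receptor genes, against 63.7% of all genes. Receptor genes are long and stand apart, and the length of DNA nearest to their starts had a median of 139.4 kb, against 44.9 kb for all genes. Among genes with at least 160 kb of such DNA, 22 receptor genes had a mean of 3.32 distal sites and all 2321 genes one of 6.33. Between 80 and 120 kb the means were 1.29 for 7 receptor genes and 3.85 for all genes, and between 40 and 80 kb they were close, 2.33 and 2.31.

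**Figure D3:**
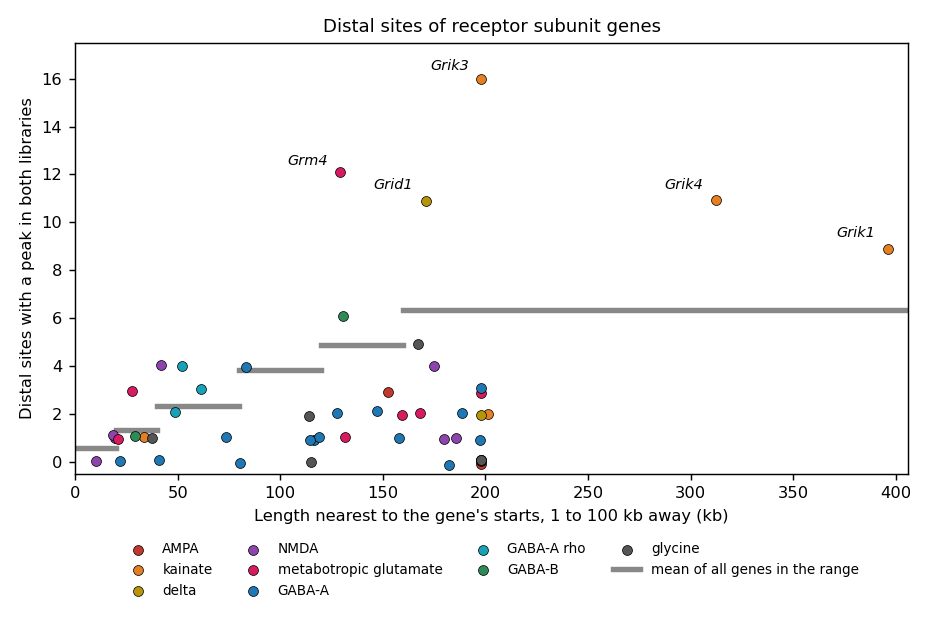
Shared distal sites of each receptor gene (y axis, count, points moved slightly apart) against the length of DNA nearest to its starts (x axis, kb). Grey lines are means over all genes in the same length range; 5 labelled genes hold 59 of the 134 sites, and most others lie under the line of their range.

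A few genes held many of the distal sites, and whether they were spread more unevenly than over all genes was not computed. Grik3 had 16, Grm4 12, Grid1 11, Grik4 11 and Grik1 9, together 59 of 134. Thus 5 of 52 receptor genes had 9 or more, beside 6.54% of all genes. The length of DNA nearest to the starts was 396 kb at Grik1 and 312.3 kb at Grik4, against a median of 139.4 kb for receptor genes. The 7 kainate and delta receptor genes held 52, and the 16 GABA-A genes held 19. Next came Gabbr2 with 6, Glra1 with 5, and Gabra5, Grin2b, Grin2c and Gabrr3 with 4 each. No shared distal site was assigned to 12 genes: Gria1, Gria3, Gria4, Gabra3, Gabrd, Gabre, Gabrg1, Gabrp, Grin3b, Glra2, Glra3 and Grm7. Height at the shared promoter site and distal sites went together in some extreme cases and not in others. Grik1 had 9 distal sites, and its shared promoter site was among the lowest. Gria4, rank 6 by promoter height, had no shared distal site. On the other side, Grik4, rank 4, had 11, and Gabra3, rank 45 and the lowest, had none. The relation over all receptor genes was not computed.

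In location, 92 of the 134 lay in introns, 85 of them in an intron of the assigned gene, 35 between genes, 5 in coding exons and 2 in UTRs. Over gene bodies of at least 50 kb, 37 receptor genes had a median of 1.22 shared sites per 100 kb, against 2.72 over all 4791 genes of that length. Grm4 had 10.1, Grik3 8.06, Grik5 8.01 and Gabbr2 6.07 per 100 kb. Gabra3, Gabrg1 and Glra2 had none, and Grm8 had 0.349 over 859.4 kb and Grm7 0.434 over 921.6 kb. Heights at the distal sites were close to those of all distal sites, with medians of 45 and 68 for receptor genes and 43 and 67 for all genes. A further 67 sites were in replicate 1 only and 193 in replicate 2 only.

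The highest distal site of a receptor gene lay at Grm8, 1475 bp before a start, with 103 and 118, above that gene's own promoter site at 66 and 102. It is shown here because it is the strongest receptor-assigned site outside the promoters. It covers chr6:28135916-28136125 of GRCm38.p6, overlaps no annotated exon, and is written on the minus strand, that of the gene, 5′ to 3′, with its 12 CpGs in capitals.
Grm8: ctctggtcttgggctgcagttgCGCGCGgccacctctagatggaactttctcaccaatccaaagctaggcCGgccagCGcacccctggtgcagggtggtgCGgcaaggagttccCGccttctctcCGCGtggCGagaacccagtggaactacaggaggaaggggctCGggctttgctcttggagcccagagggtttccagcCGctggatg
Grid1 followed with sites 9148 bp before its start (93 and 110) and 50958 bp before it (86 and 104). Grm4 had one 13507 bp before a start (92 and 105), and Gabbr2 one 1763 bp after its start in an intron (88 and 101).

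Of the 7 receptor genes without a shared promoter site 5 had shared distal sites, a share near the 63.7% of all genes. Gabrr3 had 4, the highest of them in an intron 13718 bp after the start with 73 and 90, and Gabrr1 had 3 with heights between 48 and 64 in replicate 1 and between 44 and 70 in replicate 2. Gabrr2 had 2, Glra4 had 1, and the single one of Gabra6, with 67 and 87, lay in a coding exon 6009 bp after a start.

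Most GABA-A genes sit in clusters, an old feature of vertebrate genomes. The chromosome 5 cluster of Gabra2, Gabra4, Gabrb1 and Gabrg1 had 17 shared sites in 1398 kb, or 12.2 per Mb, against 35.8 per Mb over the main chromosomes. The X cluster of Gabra3, Gabre and Gabrq had 6 in 586.6 kb, or 10.2 per Mb. Both were sparse beside the genome. The short rho cluster of Gabrr1 and Gabrr2 on chromosome 4 had 4 shared sites in 100.6 kb, or 39.8 per Mb, none of them at a promoter.

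**Figure D4:**
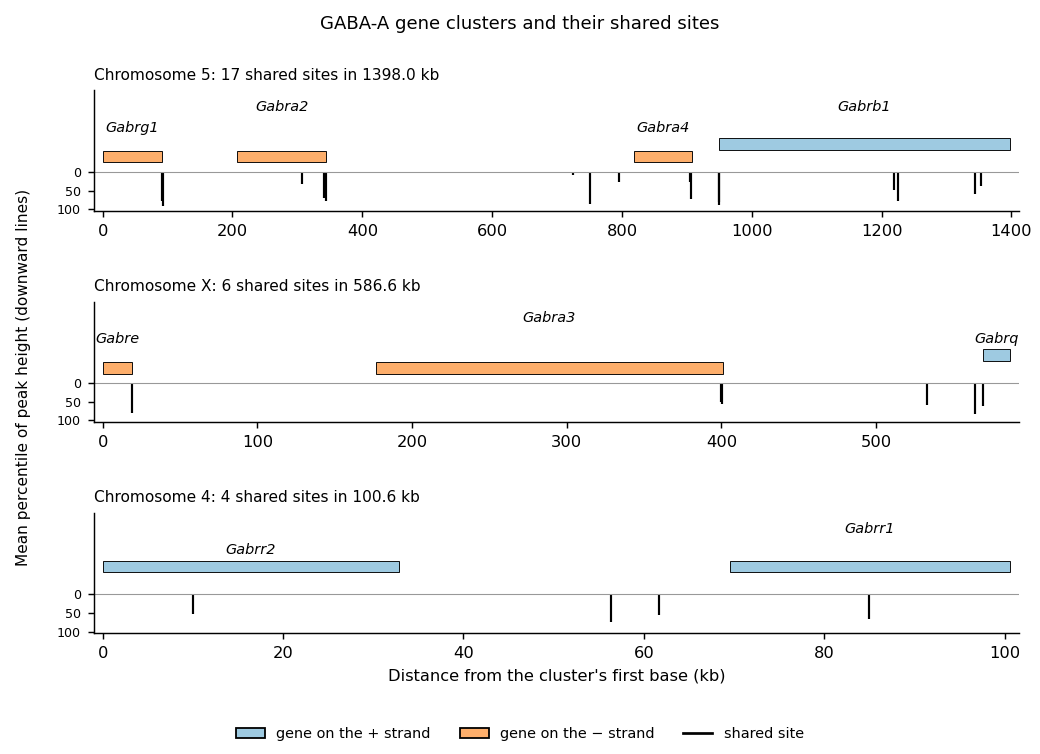
The GABA-A gene clusters of chromosomes 5, X and 4, drawn to scale as distance in kb from each cluster's first base (x axis). Boxes are genes by strand and downward lines are shared sites, with length giving the mean percentile of height; sites gather at the starts of the accessible genes, and long stretches between hold none.

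RE1, the recognition element of the repressor REST, is known from many neuronal genes, Grin1 and Gria2 among them. It was searched on both strands as its left part TTCAGCACC, any 2 letters and its right part GGACAGCGC. Within 500 bp of a start a match with up to 4 mismatches over the 18 letters was found in 6 receptor genes, or 11.5%, against 2.91% of all genes. Between 250 bp before and 50 bp after a start it was found in 2 receptor genes, against 0.883% of all genes. With up to 2 mismatches it was found in 5 receptor genes, Grin1, Gria2, Gabrd, Glra1 and Glra3, or 9.62%, against 0.224% of all genes. Over the gene body and 10 kb around it, 14 receptor genes (26.9%) had a match with up to 2 mismatches, against 2.18% of all genes. Long genes hold more letters, and among genes of at least 50 kb the shares were 29.7% (11 of 37 receptor genes) and 4.63% of all genes.

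**Figure D5:**
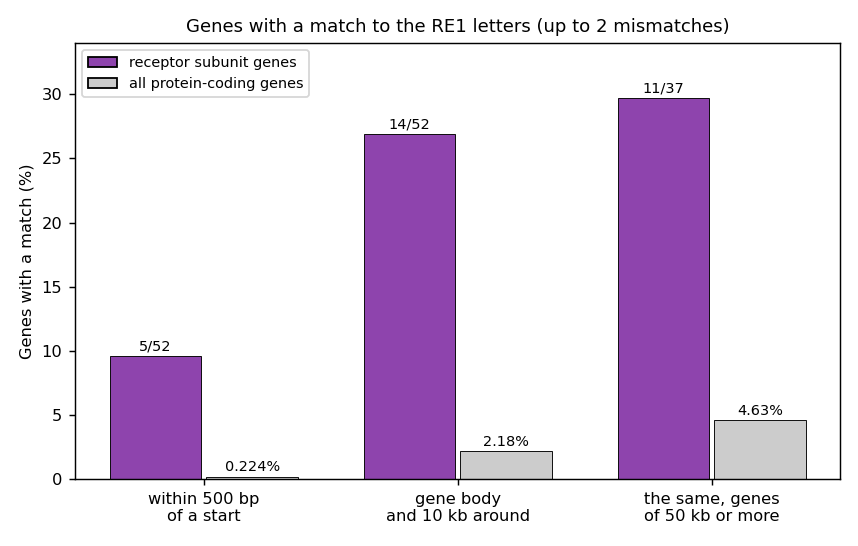
Share of genes (y axis, percent) with a match to the RE1 letters with up to 2 mismatches, for receptor genes (purple, counts above the bars) and all protein-coding genes (grey, percent above the bars). The receptor share is higher in each of the 3 search regions, 9.62% against 0.224% within 500 bp of a start.

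Matches with 1 mismatch and matches near a start are shown for 6 genes in the motif's orientation, 5′ to 3′, from GRCm38.p6, with both parts in capitals and the free letters in lower case. Grin1 lies at chr2:25319015-25319034, Gria2 at chr3:80802989-80803008 and Grid1 at chr14:34867444-34867463, each with 1 mismatch. With 2 mismatches, Glra1 lies at chr11:55607937-55607956, Glra3 at chr8:55940761-55940780 and Gabrd at chr4:155397680-155397699.
Grin1: TTCAGCACCtcGGACAGCAC
Gria2: TTTAGCACCgcGGACAGCGC
Grid1: GTCAGCACCtcGGACAGCGC
Glra1: TTCAGCACCacGGAGAGCGT
Glra3: TTCAGCACCtcAGACAGCTC
Gabrd: TTCAGCACCgaGGACGGCGG
Each of these 6 lay inside a shared site. In Grin1, Gria2, Glra1, Glra3 and Gabrd that site was the one that gives the gene's promoter height above. The Grid1 match lay in an intron 47345 bp after the start, in a site with 51 and 77.

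Of the 15 matches with up to 2 mismatches in receptor genes 12 lay in a shared site, and genome-wide 416 of 609 did, or 68.3%. Among the 12 were matches in introns of Grik2 (26 and 43), Grik3 (58 and 79) and Grm4 (48 and 79). The 3 outside a shared site were those of Grin2a and Grm6 and a second one of Grid1. A match is a description of letters, and binding of a factor was not measured. The exact letters of 3 other factors were searched within 500 bp of a start on both strands. NRF1 (GCGCANGCG) occurred in 6 of 52 receptor genes against 14.5% of all genes, SP1 (GGGCGG) in 40 of 52 against 64.9%, and CREB (TGACGTCA) in 1 of 52 against 3.82%.

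Partner genes of the receptors were set beside them from a list of 41 auxiliary subunit and scaffold genes. All 41 had a shared promoter site, with a median percentile of 90.8, above the receptor genes' 84.3 and below the 95.3 of all accessible genes. The highest were Cbln1, the cerebellin that bridges to delta receptors, with 122 and 135, Nlgn2, the adhesion protein of inhibitory synapses, with 119 and 134, and Dlg4, the main scaffold of excitatory synapses, with 123 and 130. Gphn, for gephyrin, had 116 and 134, and Dlg1 had 116 and 130. All 5 stood above every receptor gene's percentile. Over all 41 partner genes the mean of shared distal sites was 4.83, against 2.58 for receptor genes.

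Of 25 genes of other ligand-gated channels, the nicotinic, serotonin and purine receptors, 14 had a shared promoter site, or 56%, against 65.9% of all genes. P2rx3, a purine receptor gene of sensory neurons, had 113 and 143, Chrna7 96 and 139, Chrnb1 105 and 124, Chrnb2 87 and 121 and Chrna5 74 and 124. No promoter peak in either library was found at Chrna1, Chrna2, Chrna9, Chrna10, Chrnb3, Chrnd, Chrne and P2rx1. The median percentile of the 14 was 85.3, close to the receptor genes' 84.3. This list thus had a smaller share of accessible promoters than the receptor genes and similar heights where they were accessible. Its median CpG ratio was 0.357, against 0.554 for receptor genes, and the part of CpG content in the smaller share was not tested.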

How the data were processed

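DNase-seq was analysed in 2 libraries of embryonic hindbrain, with reads aligned to mm10 and peaks and hotspots listed per replicate, per the labels. In the deposited peak lists the value used is a signal height per peak. In the deposited hotspot lists it is an FDR estimate as −log10. Sources used here name no aligner, peak caller, height scaling or read depth, so no counting interval can be given. The record's title says that a later record replaces it, which was not analysed here.

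Peaks off the main chromosomes and repeated positions (32 in replicate 1, 60 in replicate 2) were left out. Sites are merged peaks of either library with an overlap of 1 bp or more. Starts were those of protein-coding transcripts in the basic set of GENCODE M21, and sequences came from GRCm38.p6 (RefSeq). A gene's height is that of the shared site with the highest mean percentile within 1 kb of a start. Python 3.11.15, pandas 2.3.3, numpy 2.4.6, pysam 0.24.0 and matplotlib 3.10.9 were used, and the site and motif steps were tested on simulated data.

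The receptor genes and gene lists were chosen with earlier results of these data known. Counts and medians cover all receptor genes, and the values of 5 of them, with the clusters that hold some of these, are not reported here. By rule values are given in full for the 12 highest promoters, genes with a peak in 1 library or none, the 10 genes with most and the 5 highest distal sites, RE1 matches, and, in other lists, the 5 highest genes and those without a peak. Alternatives changed the promoter window, overlap, height limit, start set, distal limit and motif limits, and left out each replicate.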

Additional observations from a re-analysis of the deposited data

How the results depend on the processing

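The count of 45 accessible receptor genes lay between 43 and 47 under every alternative run, and the share of all genes between 62.3% and 69.5%. Without replicate 1 it was 46 (69.5% of all genes) and without replicate 2 it was 47 (67.1%), Gria3 being gained in both. A 75 bp overlap lost Gabra2 and Grik1, and peaks above the library median lost Gabrq and Grin3b. Of the rho genes 1 was accessible with a 2500 bp window (Gabrr3), and the count ranged from 0 to 1 when one replicate was left out (Gabrr2 in replicate 1). The median height percentile of receptor genes was 88.6 without replicate 1 and 80.4 without replicate 2, each below that of all accessible genes. Mean distal sites per receptor gene ranged from 3.87 without replicate 2 to 6.29 without replicate 1, against 3.67 and 5.07 over all genes, since a single library needs no second peak. With a 50 kb limit the means were 1.87 for receptor genes and 2.01 for all genes, and with a 2500 bp window they were 2.1 and 2.23, so that the order turned. RE1 matches near a start numbered 2 receptor genes in a window of 250 bp before to 50 bp after a start, and all genes then stood at 0.883%. The count of receptor genes below the median of all accessible genes, with its values in single libraries and other windows, was added after the data were seen. No paired analysis was possible because the 2 libraries form a single group. With no read depth and 2 libraries, weak or absent peaks cannot be told from shallow sampling.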

Other observations

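The 6 receptor genes on the X chromosome, Gria3, Gabra3, Gabre, Gabrq, Glra2 and Glra4, were accessible less often and carried lower peaks than the autosomal ones, as X genes did as a whole. They had a shared promoter site in 4 of 6 cases (66.7%), against 49.5% of all X genes, and the 46 autosomal receptor genes in 41 (89.1%), against 67.2% of all autosomal genes. Median heights of the accessible ones were 44.5 and 77.5 in replicates 1 and 2, against 67 and 104 for autosomal receptor genes. Over all accessible genes the medians were 75 and 107 on the X chromosome, against 101 and 128 on autosomes. The 6 had 3 shared distal sites in all, a mean of 0.5, against 2.85 for autosomal receptor genes, while all X genes had a mean of 1.33 and all autosomal genes one of 2.60. The tissue was pooled from male and female embryos, and the part of X chromosome dosage in these values was not tested.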
